A study of Sus scrofa with 14 samples.

Results

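The lipolysis and lipid droplet genes are 9 genes of the 21280 in the count and TPM tables: PNPLA2, LIPE, MGLL, ABHD5, G0S2, PLIN1, PLIN2, ADRB1 and ADRB3. They were found by the Sus scrofa symbol of their Ensembl identifier, and all 9 were present. RNA-seq and in situ Hi-C had been run on fat of wild boar (WB) and Bama pig (BM) to compare genome folding and transcription between breeds and depots. Each assay had 7 libraries used here: 2 of WB greater omentum (GOM), 2 of WB upper layer of backfat (ULB), 2 of BM GOM and 1 of BM ULB, which is replicate 2. The donors were 4 healthy females aged 2 years that had been fasted before slaughter, 2 of each breed, and each pig was the source of both depots. The WB had lived in captivity from a young age and the BM came from a Bama Xiang line that was not inbred, so breed here rests on 2 pigs against 2, and the libraries of both depots are not independent animals.

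Fat cells keep triacylglycerol in lipid droplets and release it as fatty acids and glycerol when hormones raise cAMP. The release runs through a chain of hydrolases: adipose triglyceride lipase (PNPLA2) takes the first fatty acid, hormone-sensitive lipase (LIPE) acts on the diacylglycerol, and monoacylglycerol lipase (MGLL) completes the chain. ABHD5 activates PNPLA2 and G0S2 inhibits it, perilipins coat the droplet and control access to it, and beta-adrenergic receptors pass on the signal of catecholamines.

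None of the 9 genes passed the thresholds between depots or between breeds. PLIN1, a coat of the droplet, and LIPE, hormone-sensitive lipase, had the highest mean levels of the 9, and PLIN1 varied little among libraries. G0S2, the inhibitor of PNPLA2, ranged over 23.2-fold among libraries, with high and low libraries in both breeds. PLIN2, the perilipin of many tissues, was 1.82-fold higher in WB than in BM by fitted value without passing the test. The compartment score at its start site was lower in both BM GOM libraries than in the other 5. The fitted breed difference of its RNA was not larger in GOM than in ULB.

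The libraries held between 10833207 and 18627105 rounded estimated counts. The 9 adipocyte markers found in the table (ADIPOQ and FABP4 among them) summed to between 10395 and 19598 TPM per library, where TPM is a read share scaled for transcript length. The lowest sum was that of WB GOM replicate 1. Mesothelial markers, 6 of 10 found in the table, summed to 172 to 570 TPM in GOM and to 3.48 to 20.8 in ULB, and macrophage markers to 948 to 2275 in GOM and to 565 to 770 in ULB. Skeletal muscle markers reached 275 TPM in WB ULB replicate 1 and 3.52 to 7.99 elsewhere, and liver transcripts 283 to 1373 TPM in BM against 170 to 217 in WB. Between depots edgeR called 4 of 6 mesothelial, 2 of 9 macrophage, 1 of 7 lymphocyte and 1 of 7 fibroblast markers. All of these were higher in GOM. It called 0 of 9 adipocyte, 0 of 5 endothelial, 0 of 4 muscle and 0 of 7 liver genes. Over all genes 3.58% were called. The sum of the fibroblast markers went the other way, with 3099 to 4194 TPM in GOM and 4728 to 8002 in ULB. Of their depot values 4 of 7 were positive. The unadjusted edgeR p was below 0.05 for 2, 1, 2 and 2 genes of the adipocyte, endothelial, muscle and liver lists. DESeq2 called 1, 0, 2 and 2 in these lists. For the mesothelial, macrophage, lymphocyte and fibroblast lists 4, 6, 3 and 4 genes had such a p. There DESeq2 called 4, 6, 2 and 3. Over all genes 19.9% had an unadjusted p below 0.05. Between breeds edgeR called 4 of 7 liver transcripts, lower in WB, and 0 genes of each other marker list, beside 0.42% of all genes. Of the liver transcripts 6 had an unadjusted p below 0.05 in edgeR, and DESeq2 called 6. In the other lists 4 of 9 macrophage and 0 to 2 genes of each remaining list had an unadjusted p below 0.05. Over all genes the share was 21.6%. DESeq2 called 2 macrophage and 1 endothelial gene of these lists. Both depots are bulk tissue, in which fewer cells of a type and less RNA per cell cannot be told apart, and the part of these other cells in the results was not tested.

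Among the 3 lipases of the 9 genes, LIPE was the most abundant. Its gene (ENSSSCG00000003018) lies at chr6:49543671-49560126 on the plus strand of Sscrofa11.1 in the RefSeq annotation. LIPE had 265 and 368 TPM in WB GOM, 278 and 487 in WB ULB, 573 and 491 in BM GOM and 406 in BM ULB. The depots overlapped, as did the breeds. The log2 fold change was -0.02 (standard error 0.31, 95% interval -0.71 to 0.66, edgeR adjusted p = 0.974) for GOM against ULB. For WB against BM it was -0.16 (standard error 0.31, 95% interval -0.84 to 0.53, edgeR adjusted p = 0.794).

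PNPLA2 (ENSSSCG00000012841, chr2:513065-517962, plus strand), which starts triacylglycerol breakdown, had 119 and 140 TPM in WB GOM, 97.8 and 135 in WB ULB, 332 and 125 in BM GOM and 199 in BM ULB. On this scale BM GOM replicate 1 stood above all other libraries, and BM GOM replicate 2 lay within the range of WB. With TMM scaling BM GOM replicate 2 (198 CPM, counts scaled to library size) was below every WB library (203 to 351). BM GOM replicate 1 (483 CPM) was still the highest there, followed by BM ULB (418). The depot log2 fold change was 0.13 (standard error 0.35, 95% interval -0.64 to 0.90) and the breed value was -0.47 (standard error 0.34, 95% interval -1.23 to 0.29, edgeR adjusted p = 0.44). The ratio of PNPLA2 to LIPE on the TPM scale lay between 0.254 and 0.579, so LIPE was above PNPLA2 in 7 of 7 libraries.

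MGLL (ENSSSCG00000024134, chr13:72480395-72568964, plus strand) had the smallest adjusted depot p of the 9. Its TPM was 125 and 171 in WB GOM, 216 and 129 in BM GOM, 88.9 and 120 in WB ULB and 105 in BM ULB. Each GOM library was above each ULB library on this scale. With TMM scaling the groups overlapped, since BM GOM replicate 2 (334 CPM, counts scaled to library size) was below WB ULB replicate 2 (360) and BM ULB replicate 2 (363). The fitted difference was a log2 fold change of 0.56 (standard error 0.31, 95% interval -0.12 to 1.23, edgeR adjusted p = 0.338). It was positive in 14 of 14 alternatives, which include the main fit without its fold threshold, and never called.

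ABHD5 (ENSSSCG00000011297, chr13:27006331-27053760, plus strand), the activator of PNPLA2, had 36.4 and 102 TPM in WB GOM, 72.1 and 133 in WB ULB, 101 and 98.5 in BM GOM and 67.6 in BM ULB. WB GOM replicate 1, the library with the lowest sum of adipocyte markers, was the lowest for ABHD5, PLIN1 and LIPE in TPM. With TMM scaling it stayed the lowest for ABHD5 and LIPE. PLIN1 was then lowest in BM GOM replicate 1 (1327 CPM, against 1705 in WB GOM replicate 1). ABHD5 was at 0.305 to 0.985 times the TPM of PNPLA2. Its log2 fold change was -0.11 (standard error 0.38) between depots and 0.26 (standard error 0.38) between breeds.

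**Figure D1:**
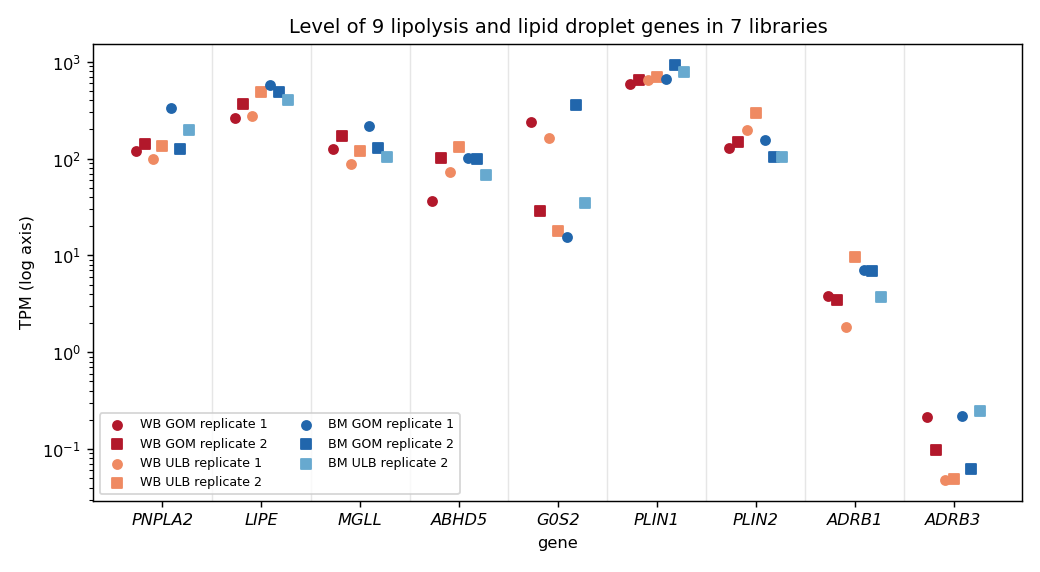
TPM (log axis) of the 9 genes, 1 point per RNA-seq library, coloured by breed and depot and shaped by replicate number. PLIN1 lies between 584 and 931 TPM, while G0S2 spans 15.3 to 355 TPM with points of both breeds and both depots at either end.

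G0S2 (ENSSSCG00000015617, chr9:133287065-133288066, minus strand) encodes a small protein that binds PNPLA2 and blocks its lipase activity. It had 236 TPM in WB GOM replicate 1, 163 in WB ULB replicate 1 and 355 in BM GOM replicate 2. In the other 4 libraries it had 28.9 (WB GOM replicate 2), 17.7 (WB ULB replicate 2), 15.3 (BM GOM replicate 1) and 34.4 TPM (BM ULB replicate 2). The high and the low libraries were thus in both depots and both breeds, and among the WB libraries those numbered 1 were high and those numbered 2 low in both depots. The ratio of the highest to the lowest library, 23.2, was above that of 97.8% of the 8260 tested genes with a mean TPM of at least 10, whose median ratio was 2.59.

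The G0S2 values rest on 29.5 to 567 estimated counts per library. Its transcript is short, with an effective length of 4.67% of that of PLIN1 as counts over TPM give it, so the same TPM corresponds to fewer counts. The depot log2 fold change was 1.14 with a wide interval (standard error 1.09, 95% interval -1.27 to 3.55, edgeR adjusted p = 0.591). It was -0.03 without BM GOM replicate 2 and 2.53 without WB ULB replicate 1. The breed value was 0.47 (standard error 1.07, 95% interval -1.90 to 2.85) and ran from -0.36 without WB ULB replicate 1 to 2.36 without BM GOM replicate 2.

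G0S2 stood above PNPLA2 in 3 libraries and below it in 4. On the TPM scale the ratio of G0S2 to PNPLA2 was 1.98 and 1.67 in the WB GOM and WB ULB libraries numbered 1, and 2.84 in BM GOM replicate 2. It was 0.207 and 0.131 in those numbered 2 of WB, 0.0461 in BM GOM replicate 1 and 0.173 in BM ULB. Over the 7 libraries the log2(TPM + 0.1) of G0S2 and PNPLA2 had a Pearson r of -0.67. A negative r was not particular to this pair. For G0S2 it was -0.56 with ABHD5, -0.54 with LIPE, -0.48 with MGLL and -0.44 with PLIN2, but 0.22 with PLIN1. These values are a description only, since all genes of a library share its depth and composition. Outside the rule for named genes and picked after its values were seen, CNIH3 was the gene most like G0S2, with r = 0.97 over 7 libraries.

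PLIN1 (ENSSSCG00000001844, chr7:55237517-55250797, minus strand), the main droplet coat protein of white fat cells, was the most abundant of the 9 in every library. It had 584 and 649 TPM in WB GOM, 652 and 701 in WB ULB, 664 and 931 in BM GOM and 775 in BM ULB. Its highest library was 1.6 times its lowest, a smaller ratio than that of all but 4.16% of the genes with a mean TPM of at least 10. The log2 fold change was -0.10 (standard error 0.32, 95% interval -0.81 to 0.61) between depots and 0.01 (standard error 0.32, 95% interval -0.70 to 0.72, edgeR adjusted p = 0.988) between breeds.

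PLIN2 (ENSSSCG00000035863, chr1:203683867-203709277, plus strand) coats droplets in many cell types, macrophages among them. Its TPM was 129 and 148 in WB GOM, 197 and 295 in WB ULB, 157 and 104 in BM GOM and 105 in BM ULB. On this scale, where the median gene was lower in WB by a log2 fold change of -0.34, the breeds overlapped through BM GOM replicate 1. With TMM scaling every WB library (146 and 198 CPM in GOM, 217 and 289 in ULB) was above every BM library (122 and 88.3 in GOM, 118 in ULB). The breed log2 fold change was 0.86 (standard error 0.27, 95% interval 0.26 to 1.46), with an unadjusted p of 0.00923 and an edgeR adjusted p of 0.137. The fit takes the libraries as independent, though they come from 2 pigs per breed.

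The direction of PLIN2 was the same in all 12 alternatives of the breed difference, which include the main fit without its fold threshold. Log2 fold changes were 0.54 to 1.03, with adjusted p of 0.0402 (DESeq2) to 0.533. The fold of PLIN2 stayed under the threshold in the DESeq2 fit, so it was not called there. Within GOM the breed value was 0.70 (standard error 0.39, edgeR adjusted p = 0.64), and within ULB, where 1 BM library is assumed to vary like the others, it was 1.10 (standard error 0.44, edgeR adjusted p = 0.302). The depot value was -0.41 (standard error 0.26, 95% interval -0.99 to 0.18). PLIN1 was above PLIN2 in every library, by 2.37 to 4.54 times in WB and by 4.24 to 8.91 times in BM on the TPM scale.

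Of the beta-adrenergic receptors, ADRB1 (ENSSSCG00000010647, chr14:124400330-124401739, plus strand) had 3.83 and 3.45 TPM in WB GOM, 1.83 and 9.51 in WB ULB, 7.13 and 6.9 in BM GOM and 3.69 in BM ULB. WB ULB held both the lowest and the highest library. Its log2 fold change was -0.04 in both comparisons (standard error 0.52, 95% interval -1.19 to 1.11 in both). Without WB ULB replicate 2 the depot value became 0.78.

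ADRB3 (ENSSSCG00000015821, chr15:48468803-48478370, plus strand), the receptor long studied in rodent fat, was near the detection limit. It had 0.0478 to 0.244 TPM, on 2 to 9.34 estimated counts per library. It passed the filter over 7 libraries only through the single BM ULB library, and it did not pass the filter in GOM. The log2 fold changes of 0.30 between depots (standard error 0.93) and -0.53 between breeds (standard error 0.92) cannot be read at this depth. ADRB1 was above ADRB3 in 7 of 7 libraries on the TPM scale.

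The mean levels over the 7 libraries followed the order PLIN1 (708 TPM), LIPE (410), PNPLA2 (164), PLIN2 (162), MGLL (136), G0S2 (122), ABHD5 (87.1), ADRB1 (5.19) and ADRB3 (0.133). PLIN1 was above LIPE, LIPE above PNPLA2, ABHD5 above ADRB1 and ADRB1 above ADRB3 in 7 of 7 libraries, by more than 1 SD of their log2 ratio. From PNPLA2 to ABHD5 each neighbour differed from the next by less than the SD of their log2 ratio over the libraries. Among the 17877 genes tested, PLIN1 ranked at position 146 by mean TPM and LIPE at 248, whereas ADRB1 ranked at 10223 and ADRB3 at 17132.

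In the comparison of 4 GOM with 3 ULB libraries, with breed as a term, edgeR called 0 of the 9 genes, a call being an adjusted p under 0.05 with a log2 fold change beyond 1 in either direction. DESeq2 and limma also called 0 of 9, and 0 of 9 had an unadjusted p below 0.05 in edgeR. Over all 17877 genes, 3.58% were called and 19.9% had an unadjusted p below 0.05. The median log2 fold change of the 9 was -0.02 beside 0.02 over all genes, and 4 of 9 were positive. On the TPM scale 1 of 9 (MGLL) had depots that did not overlap, beside 11% of all genes, and on the TMM scale 0 of 9 beside 13.4%.

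Between 4 WB and 3 BM libraries, with depot as a term, edgeR, DESeq2 and limma each called 0 of 9 genes, beside 0.42% of all genes in edgeR. PLIN2 alone had an unadjusted p below 0.05, 1 of 9 beside 21.6% of all genes. The median was 0.01 beside -0.04 over all genes, and 5 of 9 values were positive. The breeds did not overlap for 0 of 9 genes in TPM, beside 12.9% of all genes, and for 1 of 9 (PLIN2) with TMM scaling, beside 10.9%. With 9 genes, 1 gene is a share near these backgrounds.

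Within GOM, 0 of the 8 genes tested were called between breeds, by edgeR or DESeq2, beside 0.0241% of 16615 genes in edgeR, and 0 of 8 had an unadjusted p below 0.05 beside 8% of all genes. The difference between breeds in their GOM against ULB effect was called for 0 of 9 genes by edgeR and DESeq2, beside 0% of all genes in edgeR, and 0 of 9 had an unadjusted p below 0.05 beside 4.86%. With 1 BM ULB library this test could see large differences only: the standard errors of the 9 genes ran from 0.55 for PLIN2 to 2.24 for G0S2.

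**Figure D2:**
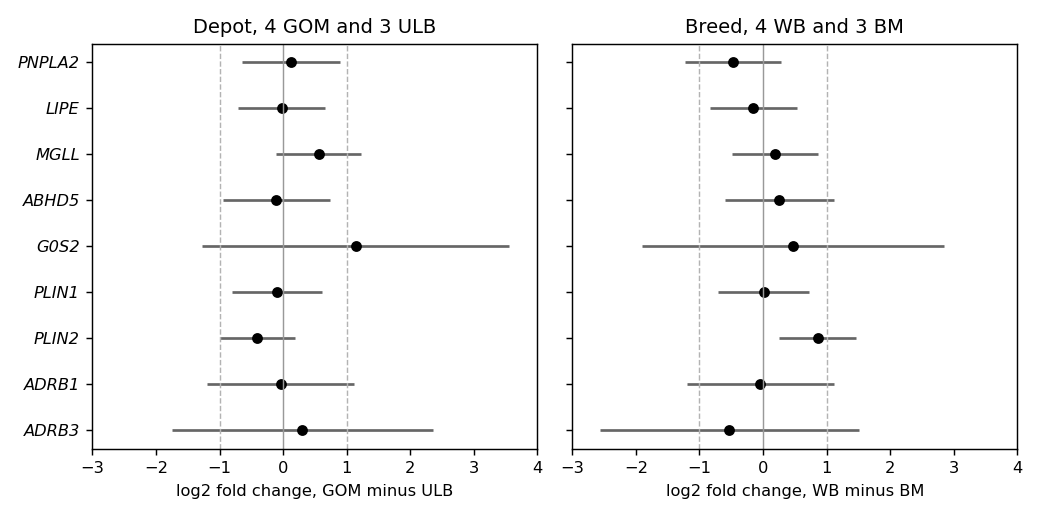
Log2 fold change of the 9 genes from edgeR, GOM minus ULB on the left and WB minus BM on the right, where points are estimates and lines their 95% intervals. Dashed lines mark the fold threshold of 1. The depot intervals all include 0, and the breed interval of PLIN2 (0.26 to 1.46) is the only one that does not. The intervals take the libraries as independent, though they come from 2 pigs per breed.

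By likeness over the 7 libraries, the genes nearest to PNPLA2 in log2(TPM + 0.1) were CYYR1 (Pearson r = 0.99), ARMH3 (0.98) and ELOC (0.98), all with their highest value in BM GOM replicate 1. For LIPE they were NFX1 (0.98), GEMIN5 (0.98) and CDS2 (0.96), and for PLIN1 ACOX2 (0.94), BDH2 (0.94) and WRN (0.93). Of the 7458 genes with a symbol and a mean TPM of at least 10, no other of the 9 was among these 3 nearest. Among the 7 of the 9 genes with a mean TPM of at least 10, the closest pair was LIPE and ABHD5, with r = 0.76 over 7 libraries. These values come from libraries that share depth and tissue makeup and are descriptions.

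The 9 genes lie on 8 chromosomes, with MGLL and ABHD5 both on chromosome 13, and their RefSeq models span from 1002 bp (G0S2) to 88570 bp (MGLL). ADRB1 has a single exon, and LIPE has 10 in each of its 5 annotated transcripts. Windows of 300 bases, from 250 before the annotated start to 50 from it, were read from Sscrofa11.1 for all 9. Those of G0S2 and PLIN2 are printed since these genes had the widest spread in RNA and the largest difference between breeds in compartment score. Capitals mark TATAAA.
G0S2, chr9:133288017-133288316, minus strand: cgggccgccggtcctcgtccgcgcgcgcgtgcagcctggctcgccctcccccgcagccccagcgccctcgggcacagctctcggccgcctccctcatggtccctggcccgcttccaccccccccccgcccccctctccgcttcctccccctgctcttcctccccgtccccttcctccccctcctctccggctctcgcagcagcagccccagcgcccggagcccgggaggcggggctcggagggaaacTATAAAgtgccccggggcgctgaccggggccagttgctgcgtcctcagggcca
PLIN2, chr1:203683617-203683916, plus strand: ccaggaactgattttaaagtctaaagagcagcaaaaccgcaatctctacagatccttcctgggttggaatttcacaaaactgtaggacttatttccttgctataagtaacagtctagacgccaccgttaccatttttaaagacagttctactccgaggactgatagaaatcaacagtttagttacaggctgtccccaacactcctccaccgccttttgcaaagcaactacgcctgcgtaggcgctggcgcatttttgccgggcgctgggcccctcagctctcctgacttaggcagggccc

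The G0S2 window was 76.3% G and C and the PLIN2 window 49.0%, beside a median of 58.7% over 19484 protein-coding genes. In the G0S2 window the letters TATAAA begin 3 bases before the annotated start. The letters AGGTCA (bound by nuclear receptors), TGACGT (the core of cAMP response elements), CACGTG (an E-box) and TATAAA (a core promoter box) were searched on both strands. AGGTCA was in 2 of 9 windows (ABHD5 and ADRB1) beside 14.1% of all windows, and TGACGT in 0 of 9 beside 8.63%. CACGTG was in 1 of 9 (MGLL) beside 7.93%, and TATAAA in 3 of 9 (G0S2, PLIN1 and ADRB3) beside 10.8%. The TATAAA match of PLIN1 lay 160 bases before the start, on the other strand, and that of ADRB3 114 bases before it. Whether any of the 3 matches works as a promoter box was not tested. The PLIN2 window held none of the 4.

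For each library, Hi-C gave PC1, a compartment score of each 20-kb bin, where a positive value places the bin in compartment A, the gene-rich and mostly active part of the genome, and a negative value in compartment B. The bin that holds the start site stood for the gene. All 9 start sites were in compartment A in 7 of 7 libraries, and so were 72% of the start sites of 18725 protein-coding genes. The mean PC1 of the 9 had a median of 39.3 beside 26.1 for all start sites. It ran from 14.7 at ADRB1 to 73.2 at PNPLA2, which was above 97.8% of all start sites, although PC1 is computed per chromosome and its scale may differ between them.

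At PLIN2 the PC1 was 53.9 and 46.6 in WB GOM, 49.7 and 55.6 in WB ULB and 41.9 in BM ULB, but 15.9 and 11.1 in BM GOM. Both BM GOM libraries were below the other 5, while BM ULB was below the WB libraries by less. Over the 7 libraries WB was higher by 26.3 (standard error 5.2, 95% interval 14.7 to 38.0), a value above that of 99.9% of bins. Its unadjusted p was 0.000615 and its limma adjusted p 0.228, so it was not called.

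Within GOM, a comparison added after these values were seen, WB was higher at PLIN2 by 36.8 (standard error 4.3, limma adjusted p = 0.0528). The difference between depots of this breed effect was 26.0 (standard error 6.5, 95% interval 11.3 to 40.8, unadjusted p = 0.00308, limma adjusted p = 0.255). When BM ULB replicate 2, the library from which BM takes its ULB values, was left out, the breed difference rested on GOM alone. It was the same 36.8 and passed the threshold in that fit (limma adjusted p = 0.0209), so it is not a separate result. The bin stayed in compartment A in all libraries. In ULB the mean PC1 of WB was above the BM library by 10.7. The RNA of PLIN2 did not show this order of depots, with breed log2 fold changes of 0.70 in GOM and 1.10 in ULB. Their difference was -0.39 (standard error 0.55), within its error.

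The low score at PLIN2 was part of a longer stretch, chosen after its values were seen. In 8 consecutive bins, 160 kb from 104 kb before the start site to 56 kb after it, both BM GOM libraries were below the other 5. BM GOM had 1.3 to 28.3 there and the other libraries 26.4 to 60.0. The same order held in 43 of the 100 bins within 1000 kb of the start and in 12% of all bins, so low BM GOM scores extended beyond the stretch. Of the 7 other protein-coding genes annotated within 300 kb of the start site, 5 were tested by symbol and 0 were called between breeds. ACER2 and ADAMTSL1 had positive breed log2 fold changes, as PLIN2 did, of 1.52 (standard error 0.64, edgeR adjusted p = 0.206) and 0.81 (standard error 0.53). DENND4C, HAUS6 and RRAGA had -0.03 (standard error 0.26), -0.38 (standard error 0.26) and -0.22 (standard error 0.30).

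**Figure D3:**
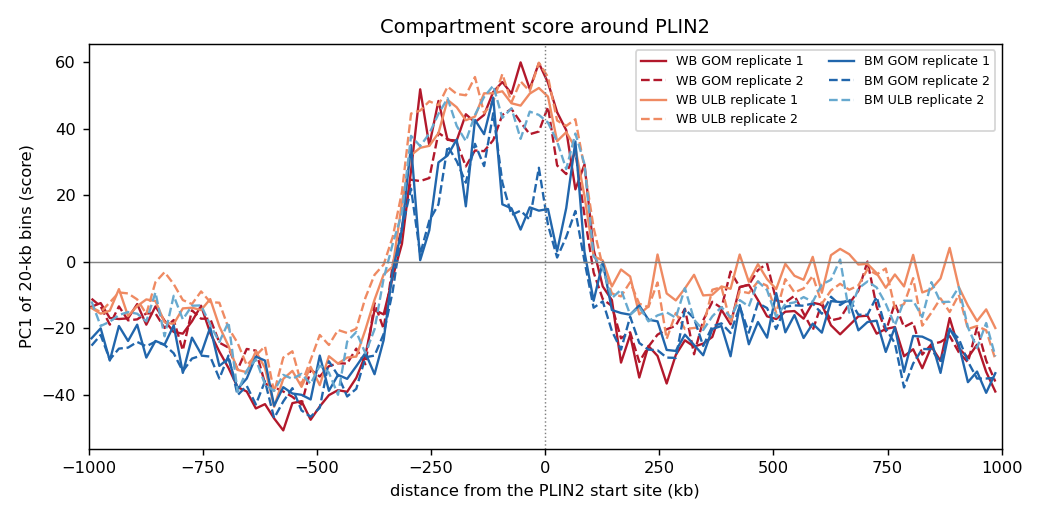
PC1 of 20-kb bins within 1000 kb of the PLIN2 start site (dotted line) in 7 Hi-C libraries, coloured by breed and depot, with replicate 2 dashed. The 2 BM GOM lines drop to 11.1 and 15.9 at the start site, where the other 5 lie between 41.9 and 55.6.

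At the lipases the PC1 varied less. PNPLA2 had 60.8 and 72.6 in WB GOM, 73.1 and 73.0 in WB ULB, 79.8 and 78.1 in BM GOM and 74.8 in BM ULB, each BM library above each WB library. The difference of WB from BM was -8.0 (standard error 3.6, limma adjusted p = 0.418), but -4.0 without WB GOM replicate 1, the lowest library, and -12.2 without BM ULB replicate 2. LIPE lay between 55.9 and 62.3 in all libraries, and MGLL between 50.2 and 63.7, with breeds overlapping at both.

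At both receptors the depots did not overlap in PC1, as was the case for 18.8% of all bins. ADRB1 had 14.2, 7.9, 9.9 and 9.6 in the 4 GOM libraries and 20.0, 19.6 and 21.5 in the 3 ULB libraries, a difference of -9.9 (standard error 2.6, limma adjusted p = 0.0819). ADRB3 had 52.5, 45.1, 49.4 and 55.7 in GOM and 38.6, 43.0 and 44.0 in ULB, a difference of 8.2 (standard error 3.0, limma adjusted p = 0.168). Neither difference was called, and the ADRB1 transcript did not follow it beyond its error (log2 fold change -0.04, standard error 0.52).

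G0S2 had a PC1 of 54.0 and 41.0 in WB GOM, 33.9 and 34.2 in WB ULB, 38.6 and 33.8 in BM GOM and 26.6 in BM ULB. It was higher in GOM by 11.9 (standard error 3.5, limma adjusted p = 0.102) and in WB by 9.8 (standard error 3.5, limma adjusted p = 0.328). Matched by label, the libraries with a high and those with a low G0S2 transcript level were not set apart in this score. BM GOM replicate 2, the highest in TPM, had 33.8 in the Hi-C library of that label. The sources used here do not say that RNA-seq and Hi-C libraries of the same number come from the same pig. PLIN1 lay between 24.4 and 36.5 and ABHD5 between 29.1 and 43.3.

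Of the 9 start-site bins, limma called 0 between depots, beside 2.3% of 113298 bins, and 4 of 9 (G0S2, PLIN2, ADRB1 and ADRB3) had an unadjusted p below 0.05 beside 21.2%. Between breeds it called 0 of 9 beside 0.00971% of bins, and 3 of 9 (G0S2, PLIN1 and PLIN2) had an unadjusted p below 0.05 beside 12.1%. Within GOM it called 0 of 9 beside 0.00265%, with 2 of 9 (PNPLA2 and PLIN2) at an unadjusted p below 0.05 beside 10.9%, and for the difference between depots of the breed effect 0 of 9 beside 0%, with 1 of 9 (PLIN2) at an unadjusted p below 0.05 beside 6.36%. Groups did not overlap for 2 of 9 between depots (ADRB1 and ADRB3) beside 18.8% of bins, and for 2 of 9 between breeds (PNPLA2 and PLIN2) beside 8.89%.

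**Figure D4:**
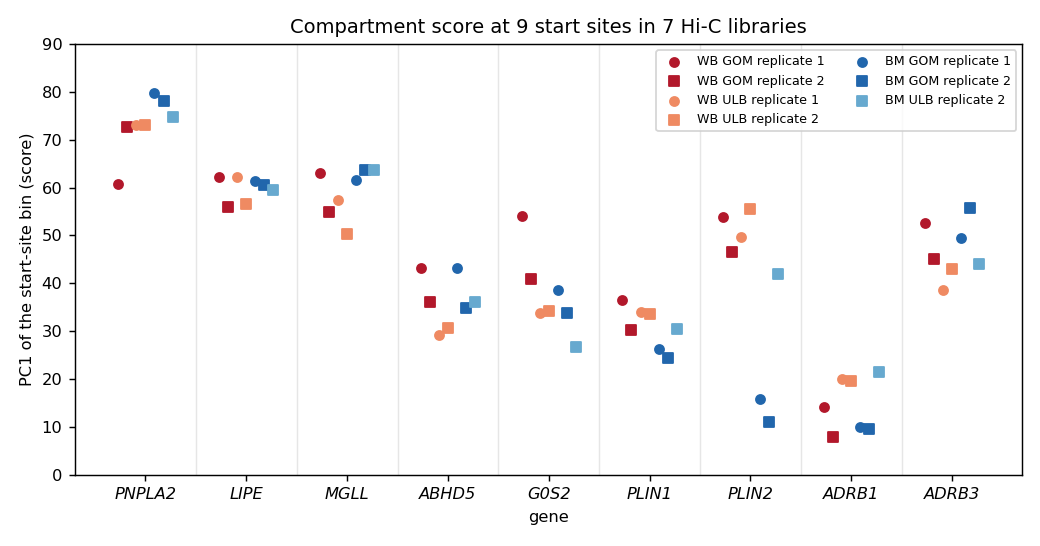
PC1 of the 20-kb bin at each of the 9 start sites, 1 point per Hi-C library, coloured by breed and depot and shaped by replicate number. All points are above 0, and at PLIN2 both BM GOM points (15.9 and 11.1) lie below the other 5.

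Topologically associating domains (TADs), blocks of the genome with frequent internal contacts, had been listed once per breed and depot on merged replicates, so they have no replicate check. All 9 genes lay whole inside a TAD in the lists of WB GOM, BM GOM and BM ULB. In the WB ULB list the PLIN1 start site fell between TADs, and the other 8 genes were inside. The TAD of PLIN2 spanned 380 kb in WB GOM, 360 kb in WB ULB, 400 kb in BM GOM and 380 kb in BM ULB, with the start site 56.1 to 76.1 kb from its nearer edge. The TAD of ADRB3 was 800 kb in 3 lists and 820 kb in WB ULB, and that of PNPLA2 ran from the chromosome end over 660 kb in WB GOM to 1060 kb in BM ULB.

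Around the 9, other genes of the pathway were taken in 3 lists. Of 34 other receptors and signalling genes 30 were tested, and 3 were higher in GOM: ADCY3 and ADRA2B, which act on cAMP, and PRKG1, the cGMP-dependent kinase. The list had a median depot log2 fold change of 0.03 beside 0.02 over all genes, 16 of 30 were positive, and the 3 called stand beside the 3.58% called over all genes. Of the 30, 6 had an unadjusted p below 0.05 beside 19.9%. Mesothelial and macrophage markers were higher in the same libraries, and their part in these calls was not tested.

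ADCY3, an adenylyl cyclase that makes cAMP, had 12.5, 8.83, 12 and 13.6 TPM in GOM and 2.49, 3.97 and 3.1 in ULB. The depots did not overlap, and the log2 fold change was 1.81 (standard error 0.27, edgeR adjusted p = 0.00511). ADCY3 was called in 14 of 14 alternatives, which include the main fit without its fold threshold. ADRA2B, an alpha-2 adrenergic receptor that lowers cAMP, had 3.41, 1.58, 2.81 and 2.6 TPM in GOM and 0.987, 0.676 and 0.389 in ULB, with a log2 fold change of 1.96 (standard error 0.40, edgeR adjusted p = 0.0235). PRKG1 had 14.5 to 26.9 TPM in GOM and 4.75 to 11 in ULB, with 1.40 (standard error 0.29, edgeR adjusted p = 0.0266). Not called but chosen after their values were seen, the other alpha-2 receptors in the table had similar estimates, ADRA2A with 1.79 (standard error 0.60, edgeR adjusted p = 0.135) and ADRA2C with 1.76 (standard error 0.53, edgeR adjusted p = 0.104). ADRA2B lost its call when WB GOM replicate 1, WB ULB replicate 2 or BM ULB replicate 2 was left out (adjusted p of 0.0973, 0.0958 and 0.151). PRKG1 lost it without any of these libraries or WB ULB replicate 1 (adjusted p of 0.074 to 0.188).

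Of 14 other hydrolases and genes for the exit of lipolysis products 12 were tested, and 1 was higher and 1 lower in GOM beside 3.58% called over all genes, with a list median of 0.05 beside 0.02. An unadjusted p below 0.05 was found for 5 of 12, beside 19.9% of all genes. PNPLA3, a patatin-domain relative of PNPLA2, had 27.4, 15.3, 22.4 and 12.7 TPM in GOM and 74.1, 56.8 and 53.9 in ULB. Every GOM library was below every ULB library, and the log2 fold change was -1.70 (standard error 0.29, edgeR adjusted p = 0.0112). PNPLA6, a phospholipase of the same family, had 8.81 to 14 TPM in GOM and 3.04 to 5.97 in ULB, with 1.45 (standard error 0.29, edgeR adjusted p = 0.0223). PNPLA3 lost its call without WB ULB replicate 1 (adjusted p = 0.0526) or BM ULB replicate 2 (0.127), and PNPLA6 without these, WB GOM replicate 1 or WB ULB replicate 2 (0.0575 to 0.117).

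Of 22 other lipid droplet proteins 18 were tested and 0 were called by edgeR between depots. Their median was 0.19 beside 0.02 over all genes, and 3 of 18 had an unadjusted p below 0.05 beside 19.9%. PLIN5, the perilipin of oxidative tissues, had 11.6 to 39.5 TPM in GOM and 6.05 to 9.29 in ULB, with a log2 fold change of 1.05 (standard error 0.32, edgeR adjusted p = 0.101), and DESeq2 called it (adjusted p = 0.0414). AIFM2 and SPART had -0.70 (standard error 0.29, edgeR adjusted p = 0.209) and -0.63 (standard error 0.25, edgeR adjusted p = 0.208). Between breeds, edgeR called 0 of 30, 0 of 18 and 0 of 12 genes of the 3 lists, beside the 0.42% of all genes. Of these, 4, 3 and 2 had an unadjusted p below 0.05, beside 21.6% of all genes, and DESeq2 called 1, 0 and 0.

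**Figure D5:**
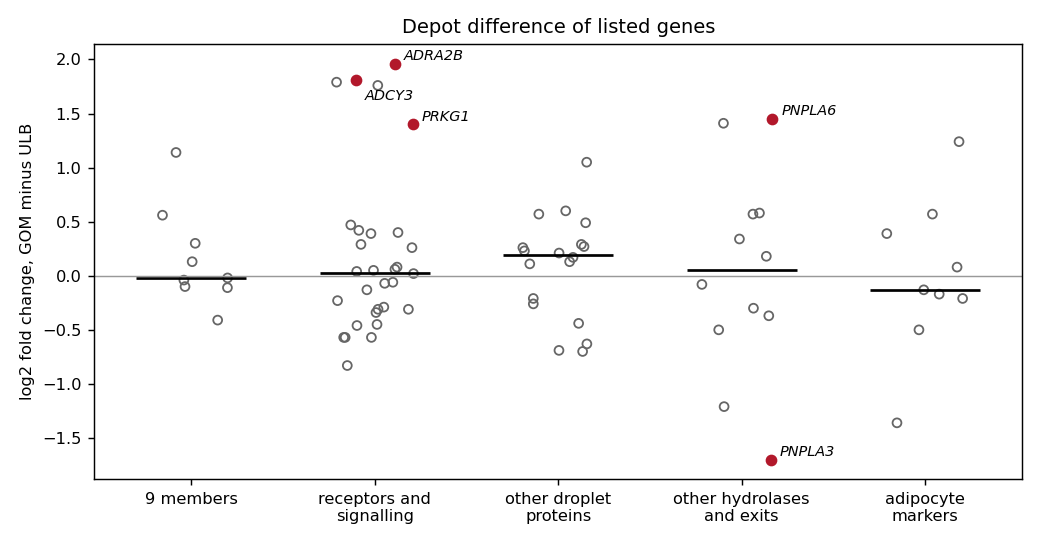
Depot log2 fold change (GOM minus ULB) of the 9 genes, of 3 lists of other pathway genes and of adipocyte markers, 1 circle per tested gene, with filled named circles for genes called by edgeR and a bar at each median. ADCY3, ADRA2B, PRKG1 and PNPLA6 are filled above 0 and PNPLA3 (-1.70) below it, and none of the 9 is filled.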

How the data were processed

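RNA-seq and Hi-C values of 7 libraries each were used, grouped by breed and depot from the labels. The authors deposited estimated counts and TPM per Ensembl gene, made with kallisto (version 0.43.0 in the submitters' processing notes) against Sscrofa11.1, with no normalization of the counts between libraries. TPM listed for the 21280 genes sums to 774260 to 956616 per library. The deposited compartment score per 20-kb bin is named an A-B index. Its mean is 0 on each chromosome, so it was read as PC1 of KR and quantile normalized contacts, whose sign the authors set by gene density. The TAD lists deposited by the authors give other values, the start and end of each TAD, called on merged replicates. No columns of the authors' own comparisons were used.

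Estimated counts were rounded and tested with edgeR 4.0.16 (quasi-likelihood F test, TMM, two-sided, Benjamini-Hochberg over all genes tested) in R 4.3.3. Genes needed a TPM above 0.1 in every library of at least 1 breed and depot group (for GOM alone, in both libraries of at least 1 breed). The model had breed and depot as terms, and 1 mean per group for the interaction. PC1 was tested with limma 3.58.1 over all autosomal bins. Alternatives were DESeq2 1.42.0, limma on log2(TPM + 0.1), other scaling, filters and samples, a replicate block and leaving out each library. The main RNA fit without its fold threshold was counted among them, though it repeats the main values. The edgeR and limma steps were tested on simulated data with independent libraries and the same spread for every gene or bin. Those data had no pigs shared between libraries, so they do not show how the tests perform in this design. Python 3.11.15 made the tables, with matplotlib 3.10.9 for plots. Symbols were paired with 14821 of 21280 genes. Intervals of fold changes are 95% intervals of the fit. The depth behind PC1 is unknown, since its files hold scores alone. P-values measure the spread between these libraries, which come from 2 pigs per breed.

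The genes named are the 9, of each other pathway list every gene called between depots or breeds (at most 6 per list and comparison) or else the 3 with the smallest depot p, and the 3 genes most like PNPLA2, LIPE and PLIN1. Genes outside this rule are said to be so. The 9 genes and the lists were chosen with earlier results of these data known. Sequences are from the RefSeq assembly Sscrofa11.1. No protein sequences were used here.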

Additional observations from a re-analysis of the deposited data

Results flagged for a closer look

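Among 4 libraries of a depot over both breeds, or of WB over both depots, 3 of 36 sets of member values held a library set apart from the other 3, where chance gives about 1 in 20. Each share below is the gap to the nearest library over the whole range, set against Dixon's 95% critical value. PNPLA2 in GOM was 332 TPM in BM GOM replicate 1 and 119 to 140 in the others, a share of 0.902. ABHD5 in GOM was 36.4 TPM in WB GOM replicate 1 and 98.5 to 102 in the others, a share of 0.953. With TMM scaling PNPLA2 had 254 and 351 CPM in WB GOM and 483 and 198 in BM GOM. ABHD5 had 41.3 and 136 CPM in WB GOM and 78.7 and 83.3 in BM GOM. The other libraries no longer lay close together there, so both gaps belong to the TPM scale. The PC1 at PNPLA2 in WB was 60.8 in WB GOM replicate 1 and 72.6 to 73.1 in the others, a share of 0.96. These sets mix breeds or depots, and the cause of the gaps was not tested.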

How the results depend on the processing

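The count of members called was 0 under every alternative for the depot, breed, GOM breed and interaction comparisons of RNA and for PC1 between depots. For PC1 between breeds it ran from 0 to 1 as each library was left out, with PLIN2 called only without BM ULB replicate 2, which leaves GOM as the only BM tissue. Of 576 alternative values of the 53 member effects, 560 kept their direction and side of the threshold or moved by less than 1 standard error. Another 15 changed sign by more, among them ADRB1 between depots (0.78 without WB ULB replicate 2), and 1 newly passed. For RNA the alternatives include the main fit without its fold threshold, whose values repeat the main ones. With the replicate number as a replicate block, 0 members were called between depots or in GOM, and the depot log2 fold change of G0S2 was 1.54 (standard error 0.46, edgeR adjusted p = 0.0857). Same-numbered WB libraries deviated together weakly (correlation of 0.154 over 17877 genes), and the sources used here do not say that a number marks a pig.

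The calls over all genes moved more. Between depots 640 genes became 1399 with DESeq2, 999 without the TPM filter, 379 in WB alone and 251 (without BM ULB replicate 2) to 655 as each library was left out. Between breeds 75 became 1157, 503, 137 with limma on log2(TPM + 0.1) and 4 to 1810, without BM ULB replicate 2 and without BM GOM replicate 2. Their split was 22 higher to 53 lower, but 13 to 60 with upper-quartile scaling and 20 to 117 with limma on TPM, where the median gene shifted from -0.04 to -0.18 and -0.34. The breed values of MGLL, ABHD5 and PLIN1 (0.19, 0.26 and 0.01) were -0.13, -0.22 and -0.29 with limma on TPM, and that of PLIN1 was -0.13 with upper-quartile scaling. In GOM 4 became 167 with DESeq2, 26 without the filter, 15 with the block and 0 to 115 (without WB GOM replicate 1), and the interaction 0 became 52, 7 and 0 to 1. Bins called for PC1 between depots fell from 2609 to 0 with the block and to 0 to 700 without a library, and between breeds 11 became 22 after chromosome median centring, 3 in GOM alone (a setting chosen after seeing the data) and 6 to 1523 (without BM ULB replicate 2). ADCY3 kept its call in 14 of 14 alternatives, PNPLA3 in 11, ADRA2B in 9 and PRKG1 and PNPLA6 in 8. The wild boar libraries alone did not call the last 4 genes, and limma on TPM did not call ADRA2B, PRKG1 or PNPLA6. The interaction could not be fitted without BM ULB replicate 2. Where not said otherwise, the cause was not tested. With 1 BM ULB library and 2 pigs per breed, differences below about the width of the intervals were not detectable, and ADRB3 had too few counts to compare.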
